A study of Mus musculus with 22 samples.

Results

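The genes described here are 10 genes of the primitive streak and nascent mesoderm, T, Mixl1, Eomes, Mesp1, Gsc, Fgf8, Wnt3, Hand1, Lhx1 and Kdr, taken by symbol from the 52535 symbols of each count table. They were followed in the mouse embryonic stem cell line E14, from which LIF and the MEK and GSK3 inhibitors had been withdrawn and which had received 2 µM retinoic acid for 1 day. All 12 RNA-seq libraries carry that treatment, and 3 libraries each came from WT cells, from cells lacking the element E1 (E1-KO) or E2 (E2-KO), and from cells named D-KO in the labels, read here as lacking both elements. E1 and E2 are enhancers studied for their action on the HoxB genes and on the onset of differentiation. There was no untreated group, so nothing below says what retinoic acid did to a gene. The labels speak of biological replicates but name neither clones nor separate cultures, and p-values therefore reflect the spread among these libraries alone.

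The primitive streak is the region of the gastrulating mouse embryo where epiblast cells leave the epithelium and become mesoderm and definitive endoderm. Wnt3 and Nodal signalling start it, the T-box factors T (brachyury) and Eomes and the homeobox factor Mixl1 act in its cells, and Mesp1 marks the earliest mesoderm that leaves it. Embryonic stem cells can be driven through this state with activin and Wnt ligands, while retinoic acid is commonly used to direct them to neural fates.

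Libraries held 9101547 to 13007735 counted reads. As a check of the genotypes, Hoxb1 had 759 counts over the WT libraries and 9, 25 and 16 over the E1-KO, E2-KO and D-KO libraries. Hoxb4 had 972 counts for WT and 45, 115 and 6 in the same order. These counts set the KO genotypes apart from WT but do not show which element is missing. Pairs of WT libraries were far less alike than pairs within a KO genotype, with a chi-square of 40.0 to 78.9 per gene between pairs of WT libraries and 2.18 to 3.95 between pairs within a KO genotype. Mitochondrial transcripts took 3.50%, 1.94% and 5.88% of the counts for WT replicates 1, 2 and 3 and 1.36% to 2.69% in the KO libraries. Relative expression tracked the GC content of genes with a Spearman correlation across genes of -0.59, 0.16 and -0.45 for WT replicates 1 to 3, 0.27 to 0.37 for E1-KO, 0.31 to 0.46 for E2-KO and -0.12 to -0.03 for D-KO. Some results against WT are therefore also given without WT replicates 1 and 3. Counts of other lists changed in that fit as well and are not all given. WT is then 1 library, replicate 2, and the spread comes from the KO libraries alone, so calls from that fit assume that WT varies as little as they do. The part of these differences in the results was not tested.

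Eomes was the only member at a moderate level. Scaled to library size with TMM (CPM) and to the length of its exons, Eomes stood at 5.79 ± 1.46 CPM per kb (SD over the 12 libraries). Hand1 followed with 0.949 ± 0.429, T with 0.628 ± 0.264 and Kdr with 0.357 ± 0.118 CPM per kb. Below these came Fgf8 (0.291 ± 0.192), Mixl1 (0.289 ± 0.104), Wnt3 (0.188 ± 0.0894), Gsc (0.172 ± 0.155), Mesp1 (0.116 ± 0.164) and Lhx1 (0.0366 ± 0.0578 CPM per kb). Only the step from Eomes to Hand1 was wider than these SDs, and each of the other 8 neighbouring pairs in the order overlapped within 1 SD. Eomes alone gave 73.6% of the counts of the 10 genes, 82.0% for WT, 72.3% for E1-KO, 74.2% for E2-KO and 62.5% for D-KO. For scale, the pluripotency factor Pou5f1 (Oct4) had a median of 585 CPM per kb and a range of 185 to 713, so these cultures carried stem cell transcripts far above every member.

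A gene was tested only if its counts passed a filter on low values. T, Eomes, Hand1 and Kdr passed and were tested with edgeR's quasi-likelihood model over 16765 genes. Mixl1, Mesp1, Gsc, Fgf8, Wnt3 and Lhx1 did not pass. They are given as counts and as ratios of total counts between genotypes, with exact 95% intervals that cover counting error only. Adjusted p-values below are from edgeR with Benjamini-Hochberg adjustment over all 16765 genes unless another tool is named, and a gene is said to have risen or fallen where that value was below 0.05. In bulk RNA, fewer cells with a transcript and less of it per cell cannot be told apart.

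**Figure D1:**
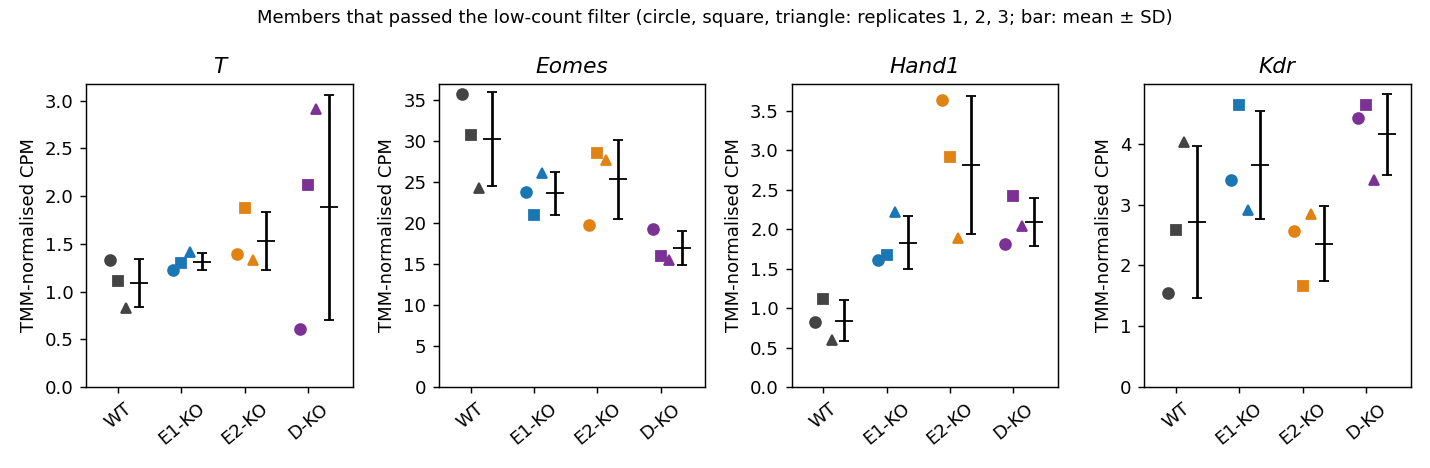
TMM-normalised CPM of T, Eomes, Hand1 and Kdr (vertical axis, linear from 0) in each of the 12 libraries by genotype, with circles, squares and triangles for replicates 1, 2 and 3 and bars for the mean ± SD of 3 libraries. Eomes lies lowest in D-KO, from 15.6 to 19.3 CPM, and Hand1 lies lowest in WT, from 0.593 to 1.11 CPM.

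The promoters of 3 T-box-related members are shown because Eomes carries most of the signal, T is the marker most often used for the streak, and Mesp1 is known in the mouse as a target of both T-box proteins. Each sequence runs 5′ to 3′ over 300 bases, from 250 before to 50 after the RefSeq start site (GRCm38.p6), at chr17:8434173-8434472 on the plus strand for T, chr9:118477939-118478238 on the plus strand for Eomes and chr7:79793541-79793840 on the minus strand for Mesp1. Capitals mark matches on either strand to the TCF/LEF core (CTTTGA or CTTTGT), the T-box core (AGGTGT) and the core of retinoid receptor sites (AGGTCA or AGTTCA), none of which overlap one another here.
T: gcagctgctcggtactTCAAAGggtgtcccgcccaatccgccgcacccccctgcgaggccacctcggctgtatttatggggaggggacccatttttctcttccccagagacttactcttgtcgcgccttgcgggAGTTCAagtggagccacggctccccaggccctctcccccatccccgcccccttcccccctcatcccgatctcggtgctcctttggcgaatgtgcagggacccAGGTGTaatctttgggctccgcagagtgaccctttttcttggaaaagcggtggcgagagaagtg
Eomes: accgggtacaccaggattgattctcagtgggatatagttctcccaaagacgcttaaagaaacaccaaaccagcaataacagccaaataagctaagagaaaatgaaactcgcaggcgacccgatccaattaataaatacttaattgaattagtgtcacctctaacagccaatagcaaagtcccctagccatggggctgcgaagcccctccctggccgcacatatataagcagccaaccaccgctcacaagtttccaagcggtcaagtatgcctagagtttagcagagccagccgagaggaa
Mesp1: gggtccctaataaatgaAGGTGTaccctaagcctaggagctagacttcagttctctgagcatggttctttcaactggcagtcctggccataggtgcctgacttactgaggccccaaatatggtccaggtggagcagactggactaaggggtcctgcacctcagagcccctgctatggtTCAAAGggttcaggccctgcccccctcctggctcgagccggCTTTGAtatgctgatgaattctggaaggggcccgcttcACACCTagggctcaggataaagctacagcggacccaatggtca
In T the TCF/LEF core begins 234 bases before the start site, the retinoid core AGTTCA 116 before and the T-box core 14 before. Mesp1 held a TCF/LEF core at 72 and another at 31 bases before the start, with T-box cores at 233 before and 8 after it. By the GENCODE annotation Mesp1 starts further upstream, at chr7:79793788, so both TCF/LEF cores lie inside the annotated gene. The Eomes window held none of these letters. Over 32851 promoters of the same length, 31.2% held a TCF/LEF core, 13.7% a T-box core and 27.7% a retinoid core. Of the 10 members, 7 had a promoter in the table. Among the other 4, Gsc held a retinoid core, Wnt3 a TCF/LEF and a retinoid core, and Lhx1 and Kdr none of the letters searched. Such matches describe the letters only.

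Eomes (Eomesodermin, ENSMUSG00000032446, chr9:118478212-118486132 on GRCm38, plus strand) encodes a T-box factor needed for the exit of cells from the epiblast and for definitive endoderm, and it also acts in trophoblast and visceral endoderm. Its counts were 348, 415 and 205 for WT, 251, 226 and 260 for E1-KO, 185, 274 and 293 for E2-KO, and 192, 159 and 160 for D-KO. In CPM these were 35.7, 30.7 and 24.3 for WT, 23.8, 20.98 and 26.2 for E1-KO, 19.8, 28.5 and 27.7 for E2-KO, and 19.3, 16.1 and 15.6 for D-KO. All 3 D-KO libraries lay below every other library. WT overlapped with E1-KO and E2-KO.

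In D-KO Eomes fell to 17.0 ± 2.06 CPM from 30.3 ± 5.73 for WT (SD, n = 3 each). The log2 fold change was -0.84 ± 0.18 (SE), a 1.78-fold lower level (adjusted p = 0.00407), with all 3 D-KO libraries lower. It was the 1 of 4 tested members that fell in this comparison, in which 12.2% of all tested genes fell. The difference was -0.36 ± 0.17 for E1-KO (23.6 ± 2.59 CPM, adjusted p = 0.125) and -0.26 ± 0.17 for E2-KO (25.4 ± 4.83 CPM, adjusted p = 0.268). Neither passed the test, and edgeR called 0 of the 4 tested members lower in these comparisons, where 18.5% and 18.6% of all tested genes fell. At an unadjusted p below 0.05 the count was 0 as well, and DESeq2 called 0. With each library's trends with GC content and gene length removed, Eomes fell in E1-KO as well (-0.61, adjusted p = 0.0125) and in E2-KO (-0.54, adjusted p = 0.0235), and without WT replicate 3 it fell in E1-KO (-0.49, adjusted p = 0.0323). The fall in D-KO was called under all 21 other settings tried, with values of -0.97 to -0.71.

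The Eomes interval overlaps by 118 exonic bases with the antisense gene Gm33460, which had 19 to 67 counts per library, 434 in all. No source used here gives the strand setting of the counting, and reads of this overlap could not be assigned to a strand. Gm33460 counts were 63, 67 and 23 for WT, 31, 32 and 31 for E1-KO, 34, 31 and 52 for E2-KO, and 21, 30 and 19 for D-KO. They were thus below the Eomes counts in each of the 12 libraries.

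T (brachyury, ENSMUSG00000062327, chr17:8434423-8442496, plus strand) is the founding T-box gene and marks the streak and the notochord. Its counts were 13, 15 and 7 for WT, 13, 14 and 14 for E1-KO, 13, 18 and 14 for E2-KO, and 6, 21 and 30 for D-KO. D-KO thus held both the lowest and the highest library, at 0.604 and 2.92 CPM, with 2.12 CPM between them. The group means were 1.09 ± 0.253 CPM for WT, 1.31 ± 0.0899 for E1-KO, 1.53 ± 0.300 for E2-KO and 1.88 ± 1.18 for D-KO (SD, n = 3 each). Against WT the log2 fold changes of 0.26 ± 0.48, 0.48 ± 0.48 and 0.78 ± 0.47 did not pass the test (adjusted p = 0.708, 0.460 and 0.247). Leaving out D-KO replicate 1, the low library, gave 1.20 for D-KO against WT with an adjusted p of 0.0491.

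Hand1 (ENSMUSG00000037335, chr11:57828705-57832818, minus strand) encodes a basic helix-loop-helix factor of lateral and extraembryonic mesoderm, the heart and trophoblast giant cells. It had 8, 15 and 5 counts for WT, 17, 18 and 22 for E1-KO, 34, 28 and 20 for E2-KO, and 18, 24 and 21 for D-KO. As CPM these were 0.821, 1.11 and 0.593 for WT, 1.61, 1.67 and 2.21 for E1-KO, 3.64, 2.92 and 1.89 for E2-KO, and 1.81, 2.42 and 2.04 for D-KO. Every KO library lay above every WT library, and the 3 KO genotypes overlapped one another.

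Hand1 rose in each KO genotype against WT (0.842 ± 0.259 CPM for WT, SD, n = 3). It stood at 1.83 ± 0.333 CPM for E1-KO, a log2 fold change of 1.08 ± 0.38 (SE, adjusted p = 0.0391). In E2-KO it was 2.82 ± 0.876 CPM, a change of 1.70 ± 0.37 (adjusted p = 0.00303), and in D-KO 2.09 ± 0.308 CPM, a change of 1.27 ± 0.38 (adjusted p = 0.0242). The 3 comparisons share the WT libraries. Hand1 was the only one of the 4 tested members that rose in each, where 15.7%, 16.7% and 10.6% of all tested genes rose in E1-KO, E2-KO and D-KO. All 3 calls rest on at most 34 counts per library.

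The call in E2-KO was lost under 1 of 21 other settings, limma voom with weights per genotype (1.60, adjusted p = 0.238). The call in E1-KO was lost under 14 of 21, with values of 0.69 to 1.36. Among these were the fits without WT replicate 1 (1.05, adjusted p = 0.0794), without WT replicate 3 (0.90, 0.0908), without E1-KO replicate 1 (1.17, 0.0620), 2 (1.14, 0.0651) or 3 (0.93, 0.128), without E2-KO replicate 2 (1.08, 0.0524) and without D-KO replicate 3 (1.08, 0.0511). The call in D-KO was lost under 6 of 21, among them without WT replicate 3 (1.09, adjusted p = 0.0574), without D-KO replicate 2 (1.16, 0.0854) and without D-KO replicate 3 (1.30, 0.0573). Against WT replicate 2 alone, with the spread taken from the KO libraries, Hand1 differed by 0.73 for E1-KO (adjusted p = 0.310), by 1.34 for E2-KO (adjusted p = 0.0371) and by 0.91 for D-KO (adjusted p = 0.168).

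**Figure D2:**
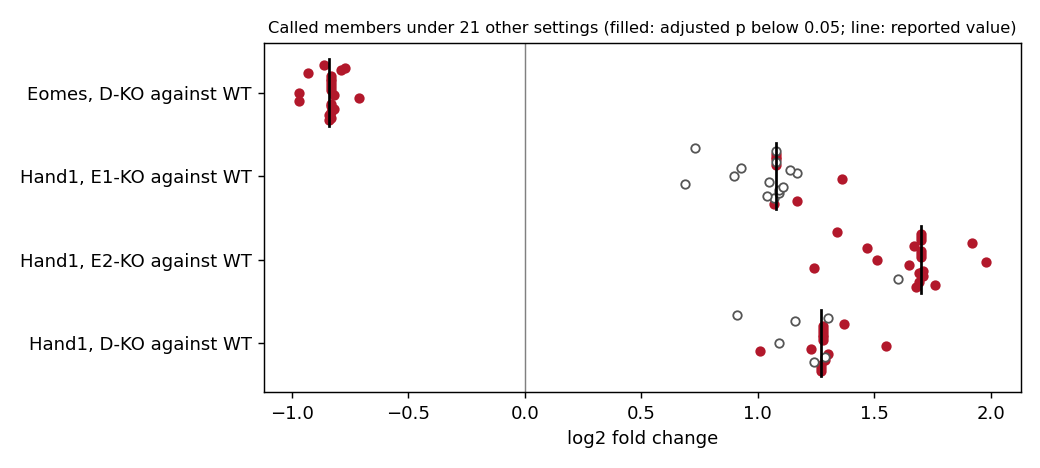
Log2 fold change (horizontal axis) of Eomes in D-KO and of Hand1 for E1-KO, E2-KO and D-KO against WT under 21 other settings, 1 point each, filled where the adjusted p was below 0.05, with a line at the reported value. The Eomes points span -0.97 to -0.71 and are all filled, while the Hand1 points in E1-KO span 0.69 to 1.36 and 14 of them are open.

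Kdr (ENSMUSG00000062960, chr5:75932827-75978458, minus strand) encodes the VEGF receptor of early mesoderm and endothelium, also known as Flk1. Its counts were 15, 35 and 34 for WT, 36, 50 and 29 for E1-KO, 24, 16 and 30 for E2-KO, and 44, 46 and 35 for D-KO. In CPM the WT libraries spread from 1.54 to 4.03 and covered nearly the whole range of the others, 1.67 to 4.64. The log2 fold changes against WT were 0.44 ± 0.34 for E1-KO, -0.19 ± 0.35 for E2-KO and 0.63 ± 0.34 for D-KO (adjusted p = 0.324, 0.710 and 0.196), none past the test. Leaving out WT replicate 3 gave 0.97 for D-KO with an adjusted p of 0.0450, and it turned the sign in E2-KO (0.16), as did leaving out E2-KO replicate 2 (0.01).

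**Figure D3:**
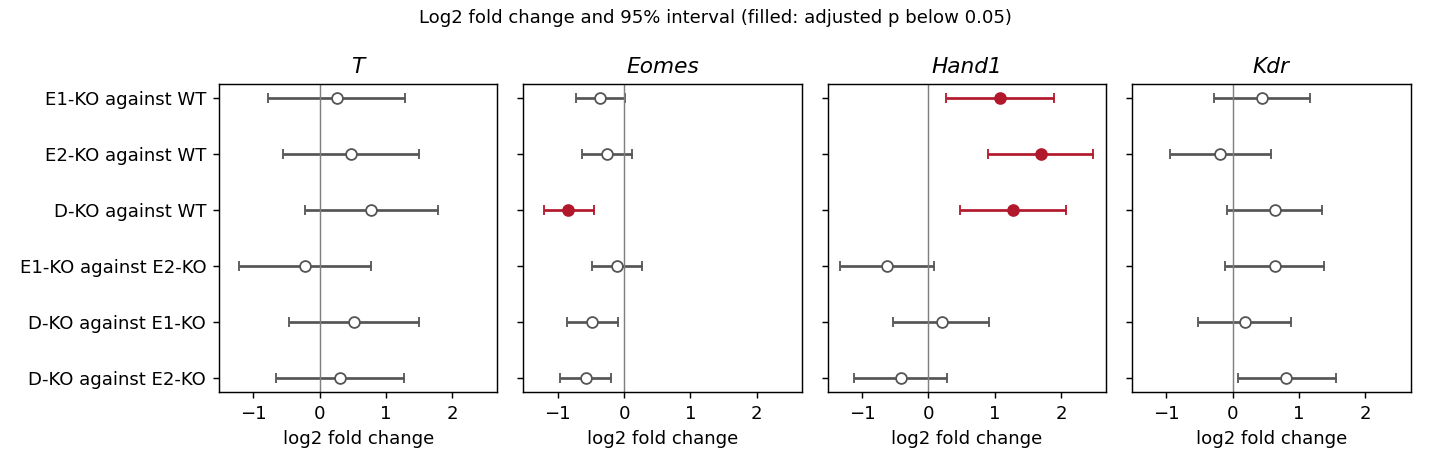
Log2 fold change (horizontal axis) of T, Eomes, Hand1 and Kdr in 6 comparisons of genotypes, with bars for the 95% interval and filled red points where the adjusted p was below 0.05. Filled points are Eomes in D-KO against WT (-0.84) and Hand1 for E1-KO, E2-KO and D-KO against WT (1.08, 1.70 and 1.27).

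The secreted ligands were barely counted. Wnt3 (ENSMUSG00000000125, chr11:103774150-103817957, plus strand), the Wnt needed to form the streak, had 4, 14 and 5 counts for WT, 3, 3 and 9 for E1-KO, 8, 8 and 7 for E2-KO, and 3, 3 and 5 for D-KO. In CPM the 3 D-KO libraries lay below the 3 E2-KO libraries, a comparison in which 45.8% of all tested genes were separated. WT overlapped with every KO genotype. The log2 ratio of totals was -0.99 for D-KO against WT (11 against 23 counts, counting interval -2.18 to 0.10). Fgf8 (ENSMUSG00000025219, chr19:45736798-45742915, minus strand), an FGF needed for cells to move away from the streak, had 5, 3 and 0 counts for WT, 2, 7 and 6 for E1-KO, 3, 8 and 2 for E2-KO, and 2, 7 and 3 for D-KO. Its genotypes overlapped in every comparison, with log2 ratios against WT of 0.93, 0.80 and 0.66 whose counting intervals all included 0.

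Of the homeobox genes, Mixl1 (ENSMUSG00000026497, chr1:180693043-180697034, minus strand), a paired-type factor of streak and endoderm, was the most even. It had 6, 7 and 6 counts for WT, 4, 6 and 9 for E1-KO, 11, 4 and 4 for E2-KO, and 8, 8 and 7 for D-KO. Log2 ratios against WT were 0.02, 0.10 and 0.35, and the widest counting interval among them ran from -0.98 to 1.02.

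Gsc (goosecoid, ENSMUSG00000021095, chr12:104471209-104473330, minus strand), a marker of the anterior streak and organizer, had 0, 1 and 0 counts for WT and 4, 5 and 5 for E1-KO. It had 0, 3 and 3 counts for E2-KO and 4, 0 and 2 for D-KO. Every E1-KO library lay above every WT and every E2-KO library. Against E2-KO this rests on 14 and 6 counts, a log2 ratio of 1.14 with a counting interval of -0.33 to 2.81. The share of all genes so separated between E1-KO and E2-KO is not given here. The log2 ratio of 14 to 1 counts for E1-KO against WT was 3.83 with a counting interval of 1.11 to 9.23. An edgeR fit without the low-count filter gave 3.87 with an adjusted p of 0.0666.

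Lhx1 (ENSMUSG00000018698, chr11:84518284-84525535, minus strand), a LIM homeobox factor of the anterior mesendoderm and visceral endoderm, went the other way. It had 3, 2 and 7 counts for WT, 0, 0 and 1 for E1-KO, 0, 1 and 0 for E2-KO, and 0, 1 and 2 for D-KO. The WT libraries lay above those of E1-KO and of E2-KO and overlapped with D-KO. The log2 ratios of totals were -3.57 for 1 count against 12 for E1-KO (interval -8.98 to -0.81), -3.48 for E2-KO (-8.90 to -0.73) and -1.93 for 3 counts for D-KO (-4.39 to -0.04). Without the filter, edgeR gave adjusted p-values of 0.157, 0.171 and 0.472.

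Mesp1 (ENSMUSG00000030544, chr7:79792241-79793788, minus strand), the basic helix-loop-helix factor of early cardiac and cranial mesoderm, had 18 counts in all 12 libraries and 0 in 5 of them. Of these, 7 came from D-KO replicate 1, and D-KO replicates 2 and 3 had 0. For scale, 3 counts over the 3 libraries of a genotype correspond to 0.0947 to 0.102 CPM.

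**Figure D4:**
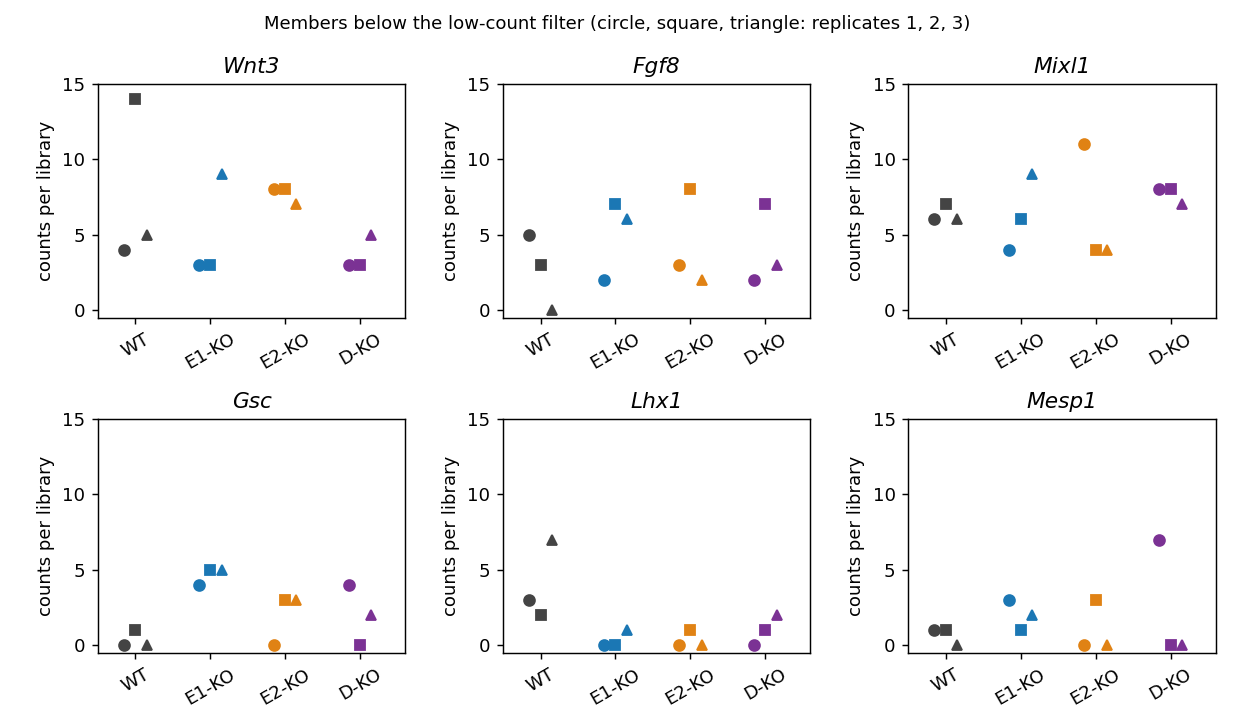
Counts per library (vertical axis) of the 6 members below the low-count filter, by genotype, with circles, squares and triangles for replicates 1, 2 and 3. All values lie between 0 and 14 counts, Gsc is at 4 or 5 in each E1-KO library and at 0 or 1 for WT, and Lhx1 is at 2 to 7 for WT and at 0 or 1 for E1-KO and E2-KO.

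Over the 10 members, libraries did not overlap between genotypes for Gsc and Hand1 (higher) and Lhx1 (lower) in E1-KO against WT, where 41.1% of all tested genes were so separated. In E2-KO against WT these were Hand1 (higher) and Lhx1 (lower), beside 41.0% of tested genes, and in D-KO against WT Hand1 (higher) and Eomes (lower), beside 32.8%. Gsc and Lhx1 were not among the tested genes that give these shares, and of the 4 tested members the separated ones numbered 1, 1 and 2.

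Wnt3, Hand1 and Lhx1 share chromosome 11 with the HoxB cluster, at 7.41, 38.36 and 11.67 Mb from it. The other 7 members lie on other chromosomes.

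Between KO genotypes edgeR called 0 of the 4 tested members in each of 3 comparisons, in which 0.596% (E1-KO against E2-KO), 15.9% (D-KO against E1-KO) and 4.48% (D-KO against E2-KO) of all tested genes passed. At an unadjusted p below 0.05 there were 0, 1 and 2, and DESeq2 called 0 in each. Limma with weights per genotype called 0, 1 and 2. Eomes was lower in D-KO than in E1-KO by a log2 difference of -0.48 ± 0.18 (adjusted p = 0.0833, 1.39-fold) and than in E2-KO by -0.58 ± 0.18 (adjusted p = 0.0821, 1.49-fold), with all 3 D-KO libraries below all 6 others. Over all tested genes, 54.4% and 45.8% were separated without overlap in these comparisons. Both passed with limma (adjusted p = 0.00284 and 0.00110) and in fits to only the 6 libraries compared (0.000318 and 0.000568). They also passed without WT replicate 3 (0.0285 and 0.0223), and the difference from E2-KO without WT replicate 2 (0.0329). Kdr was 4.43, 4.64 and 3.40 CPM for D-KO and 2.57, 1.67 and 2.84 CPM for E2-KO, with no overlap (log2 difference 0.81 ± 0.34, adjusted p = 0.187), and passed with limma (adjusted p = 0.0173). Hand1 differed between E1-KO and E2-KO by -0.62 ± 0.33 (adjusted p = 0.540, 95% interval -1.33 to 0.09).

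The interaction of both deletions, the change in D-KO less the sum of the changes in E1-KO and E2-KO, was called for Hand1 only (-1.50 ± 0.50, adjusted p = 0.0316), where 35.2% of all tested genes were called. In plain terms, Hand1 for D-KO was 2.83-fold below the level that adding the 1.08 of E1-KO and the 1.70 of E2-KO would give. Both of these are measured from the same WT libraries. A shift of WT against all KO genotypes would therefore give such a value too, and this contrast cannot tell the 2 apart. The call was lost under 11 of 20 other settings, with values of -1.78 to -0.92. It was lost without WT replicate 1 (-1.47, adjusted p = 0.050), E1-KO replicate 3 (-1.35, 0.0796), E2-KO replicate 1 (-1.28, 0.0877) or 2 (-1.48, 0.0621) and D-KO replicate 1 (-1.41, 0.0676) or 3 (-1.48, 0.0616). Values for Eomes (-0.22 ± 0.25), Kdr (0.37 ± 0.48) and T (0.05 ± 0.66) were not called.

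The pathways that start the streak were read from lists of genes outside the 10 members. Their counts, and those of all lists further below, are to be read beside the shares over all tested genes. In E1-KO, E2-KO and D-KO against WT, 15.7%, 16.7% and 10.6% of all tested genes rose, and 18.5%, 18.6% and 12.2% fell. Nodal is the TGF-beta family ligand that patterns the epiblast. Of 14 genes of its pathway, all tested, 8 fell and 1 rose with E1 deleted, 6 fell and 2 rose with E2 deleted, and 7 fell and 2 rose in D-KO. The median log2 fold change was -0.42, -0.37 and -0.34, against -0.01, 0 and -0.02 over all tested genes. A fit to only the libraries compared left 1 rise and 4 falls for D-KO. Nodal itself rose in E2-KO (0.46 ± 0.15, adjusted p = 0.0275) and in D-KO (0.55 ± 0.15, adjusted p = 0.0166). Skil (SnoN), a repressor of SMAD signalling that is itself a Nodal target, fell from 346 ± 116 CPM for WT to 79.8 ± 3.15 for E1-KO (-2.12 ± 0.17, adjusted p = 1.49e-06), and by 1.92 for E2-KO and 1.39 for D-KO. Acvr1b (ALK4), the type I receptor of Nodal, rose from 38.6 ± 2.96 to 93.3 ± 4.06 CPM for E1-KO (1.27 ± 0.10) and by 0.94 for E2-KO. Tdgf1 (Cripto), the Nodal co-receptor, rose from 253 ± 24.4 to 447 ± 3.86 CPM for D-KO (0.82 ± 0.10, adjusted p = 5.21e-05).

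Called Wnt pathway genes went in both directions, as did the called genes over the whole table, whose shares are given above. Of 15 tested genes of 18 listed, 3 rose and 4 fell in E1-KO, 3 each in E2-KO, and D-KO had 1 rise and 2 falls, with medians of 0.05, 0.11 and 0.07. The D-KO count became 6 without WT replicates 1 and 3 (1 rose and 5 fell) and 5 without WT replicate 2 (3 rose and 2 fell). Lrp6, a Wnt co-receptor, fell from 225 ± 31.4 CPM for WT to 106 ± 5.87 for E1-KO, 84.0 ± 0.941 for E2-KO and 81.8 ± 3.32 for D-KO. Tcf7l1 (TCF3), the repressor among the TCF factors, rose from 101 ± 14.4 CPM to 181 ± 2.57, 178 ± 5.90 and 183 ± 2.75.

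BMP signalling acts from the extraembryonic ectoderm on the proximal streak. Of 15 genes of this pathway, all tested, 6 fell and 4 rose in E1-KO, 7 fell and 4 rose in E2-KO, and 8 fell and 1 rose in D-KO, with medians of -0.45, -0.45 and -0.54. The target genes Id2 and Msx1 led these falls. Id2, an inhibitor of basic helix-loop-helix factors, went from 61.2 ± 23.3 CPM for WT to 8.16 ± 0.477 for E1-KO, 8.39 ± 1.25 for E2-KO and 13.5 ± 1.34 for D-KO. The homeobox gene Msx1 went from 8.20 ± 2.27 CPM to 0.160 ± 0.144, 0.240 ± 0.0712 and 0.631 ± 0.0660. In a fit to only the libraries compared, 4 genes of this list fell and 0 rose in D-KO.

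For FGF signalling, 2 of 14 tested genes rose and 3 fell in each single KO genotype, and 2 rose in D-KO while 12 were not called. These counts stand beside the shares of all tested genes given with the Nodal list. Fgfr2, an FGF receptor, fell from 18.7 ± 0.530 CPM for WT to 4.85 ± 1.52 for E1-KO and 9.33 ± 1.37 for E2-KO. Fgf5, a ligand of the primed epiblast, fell from 2.30 ± 1.41 CPM for WT to 0.289 ± 0.169 for E1-KO and 0.229 ± 0.237 for E2-KO. In D-KO Spry4, a feedback inhibitor, rose by 0.48 ± 0.14 and Fgf3 by 1.53 ± 0.45 (0.929 ± 0.701 CPM for WT and 2.82 ± 0.306 for D-KO). Fgf3 rose by similar amounts in E1-KO (1.56 ± 0.45) and E2-KO (1.54 ± 0.45). The D-KO count became 6 without WT replicates 1 and 3 (2 rose and 4 fell), 5 rises without WT replicate 2, 1 without D-KO replicate 1 or 3 and 0 without D-KO replicate 2. Without WT replicate 2 there were 6 rises and 3 falls in E1-KO and 5 rises and 3 falls in E2-KO, and without E1-KO replicate 1 there were 1 rise and 2 falls in E1-KO. Fits to only the libraries compared had 1 rise and 2 falls in E1-KO, 0 rises and 2 falls in E2-KO and 0 calls in D-KO. The rises of Fgf3 in E2-KO and D-KO and of Spry4 in D-KO were thus not called there.

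**Figure D5:**
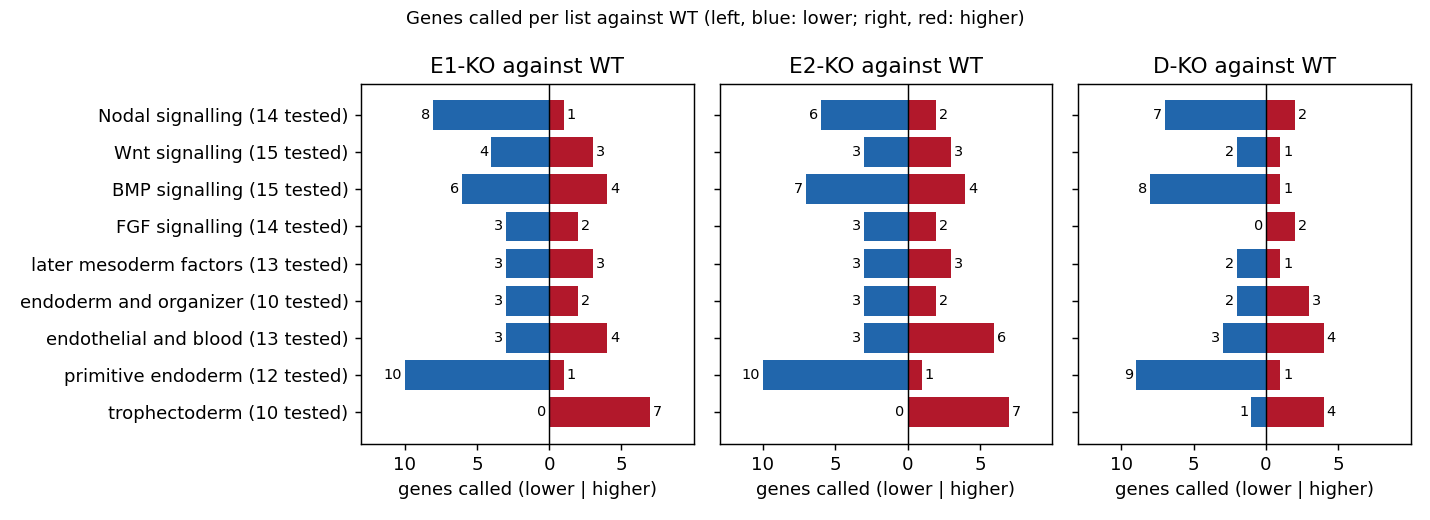
Numbers of genes called lower (left, blue) and higher (right, red) against WT in 9 gene lists, 1 panel per KO genotype, with the number tested beside each name. Primitive endoderm genes fall in 10, 10 and 9 of 12 cases and trophectoderm genes rise in 7, 7 and 4 of 10, while the later mesoderm list has no more than 3 genes in either direction. Over all tested genes 15.7%, 16.7% and 10.6% rose and 18.5%, 18.6% and 12.2% fell in E1-KO, E2-KO and D-KO.

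Called genes that act after the streak went in both directions, as did the called genes over the whole table. Of 21 later mesoderm factors, 13 were tested, of which 3 rose and 3 fell in each single KO genotype, and 1 rose and 2 fell in D-KO. Pdgfra, a receptor of paraxial mesoderm that the primitive endoderm list holds too, fell from 26.5 ± 4.15 CPM for WT to 4.11 ± 0.512 for E1-KO, 10.8 ± 0.773 for E2-KO and 13.5 ± 2.72 for D-KO. Snai1, a repressor of E-cadherin that acts as cells leave the streak, rose from 6.21 ± 3.64 CPM for WT in every KO genotype. It reached 14.0 ± 1.38 for E1-KO (1.13 ± 0.29), 17.8 ± 1.94 for E2-KO (1.48 ± 0.29) and 16.1 ± 2.33 for D-KO (1.33 ± 0.29). Tbx3, which the naive pluripotency list holds too, rose by 0.46 ± 0.10 for E1-KO and for E2-KO. Without WT replicates 1 and 3 the D-KO count was 1 rise and 5 falls, and without WT replicate 2 it was 3 of each. Without E1-KO replicate 3, E1-KO had 2 rises and 1 fall. Fits to only the libraries compared had 0 rises and 1 fall in E1-KO and in D-KO, and 1 rise and 2 falls in E2-KO. The rises of Snai1 in E1-KO and D-KO and of Tbx3 in E1-KO were thus not called there.

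Of 10 tested endoderm and organizer genes, 2 rose and 3 fell in each single KO genotype, and 3 rose and 2 fell in D-KO, where without WT replicates 1 and 3 it was 3 falls. The D-KO count was 2, 3 and 3 without D-KO replicate 1, 2 or 3. The endoderm factor Sox17 fell from 9.20 ± 3.71 CPM for WT to 1.28 ± 0.227 for E1-KO and 3.86 ± 0.978 for E2-KO. The forkhead factor Foxa1 fell from 9.69 ± 2.08 to 2.00 ± 0.566 for E1-KO, 3.27 ± 1.10 for E2-KO and 3.48 ± 0.838 for D-KO. Foxj1, the ciliogenesis factor, rose in E1-KO (1.37 ± 0.35), E2-KO (1.82 ± 0.35) and D-KO (1.33 ± 0.35). A fit to only the libraries compared had 0 rises and 1 fall of this list in D-KO, so the Foxj1 rise was not called there. Of 13 tested endothelial and blood genes, 4 rose and 3 fell in E1-KO, 6 rose and 3 fell in E2-KO, and 4 rose and 3 fell in D-KO, where 2 rose and 2 fell without D-KO replicate 1 or 2. Limma with weights per genotype, like fits to only the libraries compared, left 3 rises and 2 falls for E2-KO, and 0 rises and 2 falls for D-KO. Vegfa, a ligand of Kdr, rose from 59.1 ± 14.0 CPM for WT to 144 ± 1.14 for E1-KO, 144 ± 4.77 for E2-KO and 82.1 ± 5.09 for D-KO. Tek, the angiopoietin receptor of endothelium, fell from 9.13 ± 2.38 to 3.37 ± 0.333 for E1-KO, 1.69 ± 0.850 for E2-KO and 2.33 ± 0.463 for D-KO.

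Several members also mark other lineages of the early embryo, and genes of those lineages moved beside them. Beside the rise of Hand1, trophectoderm genes rose in 7 of 10 tested cases in both single KO genotypes and in 4 of 10 for D-KO, where 1 fell. Limma with weights per genotype called 3, 4 and 0 of them, and without D-KO replicate 1, 2 or 3 the count of called genes for D-KO was 1, 3 and 2. Their summed level was 87.7 to 108 CPM for WT, 192 to 205 for E1-KO, 190 to 198 for E2-KO and 113 to 117 for D-KO. Tead4, a trophectoderm regulator, stood at 19.8 ± 1.22 CPM for WT, 50.5 ± 3.53 for E1-KO and 41.0 ± 1.40 for E2-KO, and Krt8 at 33.6 ± 8.79, 75.1 and 81.2 CPM. Tpbpa, a marker of the ectoplacental cone, was at 0 in all 12 libraries, and Cdx2, a defining factor of the trophectoderm, was at 1.58 CPM for WT and 0.838, 0.624 and 0.964 CPM in the KO genotypes. Eomes, which also acts in trophoblast, did not rise beside these genes, with log2 fold changes of -0.36, -0.26 and -0.84 in E1-KO, E2-KO and D-KO. Among the KO genotypes the summed level was lowest in D-KO. Hand1 stood at 1.83 CPM for E1-KO and 2.09 CPM for D-KO, with overlapping libraries and no call between them (log2 difference 0.20 ± 0.34, edgeR adjusted p = 0.734). The part of this lineage in the Hand1 and Eomes results was not tested.

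Eomes, which fell in D-KO, and Lhx1 are also known from visceral endoderm, and primitive endoderm genes fell in 10, 10 and 9 of 12 cases in E1-KO, E2-KO and D-KO, with 1 rise each. The summed level was 557 to 792 CPM for WT, 204 to 211 for E1-KO, 286 to 300 for E2-KO and 362 to 371 for D-KO. The lineage regulator Gata6 stood at 70.5 ± 1.87 CPM for WT, 16.2 ± 1.18 for E1-KO, 36.5 ± 1.61 for E2-KO and 46.1 CPM for D-KO, so its lowest level was in E1-KO and that of Eomes in D-KO. The part of primitive endoderm in the values of Eomes and Lhx1 was not tested. Naive pluripotency genes rose in 10 of 12 cases in both single KO genotypes and 7 for D-KO, the others not being called, with summed levels of 2500 to 2740 CPM for WT and 3120 to 4440 CPM in the KO libraries. Formative and primed epiblast genes rose in 2, 2 and 3 and fell in 6, 5 and 2 of 10 cases. Of 7 tested early neural genes 4, 3 and 3 fell, while 1 rose in E1-KO and in D-KO. Leaving out E1-KO replicate 1 or 2 left 3 falls and 0 rises for E1-KO, and leaving out D-KO replicate 1 or 2 left 1 of each for D-KO. Of 3 tested fibroblast genes 1 fell in each KO genotype and 1 rose in both single KO genotypes. Leaving out WT replicate 1 or E1-KO replicate 1 or 2 ended the rise for E1-KO, and D-KO had 1 rise and 1 fall without WT replicate 3 and 2 falls against WT replicate 2 alone.

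Among 13229 genes outside the members with a mean of at least 1 CPM, the levels most like that of Eomes over the 12 libraries were those of Pfn2, a profilin, and Rnf6, a ubiquitin ligase, both with a Pearson correlation of log2 CPM of 0.92. For Hand1 they were Rab34, a small GTPase, and Ehbp1l1 (0.95 each), for Kdr Ankrd33b (0.86), and for T the symbol AC192333.4 (0.87) and Rnf25 (0.80). The order depended on the scaling: with library totals in place of TMM, Hdgf led for Hand1 (0.97) and Pcmtd2 for Eomes (0.92), and Tbcel was second for T (0.85). Pfn2 ran at 10.4 to 15.0 CPM for WT and 5.54 to 8.56 for D-KO, and Rab34 at 8.54 to 12.3 CPM for WT and 13.3 to 21.7 in the KO libraries. Among the members themselves, the correlation over the 12 libraries was -0.72 for Eomes with Kdr, -0.45 for Eomes with Hand1 and 0.46 for T with Hand1. These libraries share genotypes and the trends with GC content given above, so the correlations are descriptions.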

How the data were processed

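RNA was extracted with Trizol, and the kit and selection used for the libraries are not stated. The read counts per gene symbol are whole numbers made by the authors. The tools, per the submitters' processing notes for the series, include HISAT2 2.1.0, HTSeq 0.9.1 and DESeq2 1.18.1 with build mm10, while annotation and strand setting of the counting are absent from the sources. HTSeq's lines without a gene stayed out, and its no-feature reads came to between 1.11 and 1.20 per counted read. 4C and ChIP samples were not analysed here.

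With edgeR 4.0.16 in R 4.3.3, genes passing filterByExpr (minimum count 10) were kept, TMM scaled the libraries, and a robust quasi-likelihood fit took 1 mean per genotype over all 12 libraries, calling genes at a Benjamini-Hochberg adjusted p under 0.05. One estimate of spread served all genotypes, but tagwise dispersions had a median of 0.0947 in WT alone and 0.0066 in the KO libraries, so errors of comparisons with WT may be understated and the others overstated. Alternatives used DESeq2 1.42.0 and limma 3.58.1. The model was tested on data simulated with the same spread in all genotypes. That test could not show how the unequal spread affects comparisons with WT. Positions and exon lengths are from GENCODE M21, where 48007 of 52535 symbols matched 1 gene, and promoters from RefSeq. Genes of the lists were to be named by a rule of up to 2 called genes with the smallest adjusted p per list and comparison with WT, and only part of those are given. For each tested member the rule took the 2 genes with the highest correlation of log2 CPM (plus 0.5), without predicted loci; 1 of these genes is not reported here. Cdx2, Tpbpa, Pou5f1 and further genotypes of named genes were added after their values were seen. The members and all lists were chosen with earlier results of these data known.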

Additional observations from a re-analysis of the deposited data

Results flagged for a closer look

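For Hand1 the interaction of both deletions was -1.50 ± 0.50 on the log2 scale (edgeR adjusted p = 0.0316). Hand1 was not called between KO genotypes. The edgeR adjusted p was 0.540 for E1-KO against E2-KO, 0.734 for D-KO against E1-KO and 0.485 for D-KO against E2-KO. A shift of the WT libraries against all KO libraries would give such a value too, and these readings cannot be told apart here. The log2 fold change against WT was 1.08 for E1-KO, 1.70 for E2-KO and 1.27 for D-KO. The interaction was called for 35.2% of all tested genes, and it was not called for T, Eomes or Kdr. Hand1 had 5 to 34 counts per library, and the call was lost under 11 of 20 other settings.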

How the results depend on the processing

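Among the 4 tested members, the fall of Eomes in D-KO against WT was called under all 21 alternatives, and the rise of Hand1 for E2-KO under 20 of 21. The other 6 members did not pass the filter of the reported fit. Their ratios of totals remained within the reported counting intervals in all 525 recomputed values. Where leaving out a library brought a total to 0, as for Gsc without WT replicate 2, no ratio was computed. The intervals are also wide, such as -8.98 to -0.81 for Lhx1 in E1-KO against WT, so this check is a weak one. The WT libraries carry more spread than the shared estimate, and limma with weights per genotype (weight 0.191 for WT, 1.62 to 1.83 for KO) called fewer genes against WT and more between KO genotypes. The cause was not tested for any of the changes below.

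Members called in E1-KO against WT went from 1 to 0 with DESeq2 (Hand1 1.07, adjusted p = 0.0723), limma, no filter, only the libraries compared, the replicate block (Hand1 1.11, adjusted p = 0.0514) and without WT replicates 1 and 3. In E2-KO they went from 1 to 0 with limma and to 2 with GC and length trends removed. In D-KO they went from 2 to 1 with limma, only the libraries compared and without WT replicates 1 and 3. Against E1-KO, D-KO had 1 member called with limma, only the libraries compared and without WT replicates 1 and 3, and against E2-KO 2 with each of these and 1 with no filter. The interaction had 0 with DESeq2, limma, no filter, GC and length trends removed and without WT replicates 1 and 3. Leaving out 1 replicate gave 0 to 1 members in E1-KO, 1 for E2-KO, 1 to 3 for D-KO, 0 to 1 for D-KO against E1-KO, against E2-KO and in the interaction.

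Over all genes, limma called 3279 for E1-KO, 3229 for E2-KO and 1927 for D-KO against WT, 2811 between E1-KO and E2-KO, 7960 for D-KO against E1-KO and 5678 against E2-KO. Fits to only the libraries compared called 2552, 2535, 1438, 3378, 8027 and 5872 in the same order. Without WT replicates 1 and 3, where WT is 1 library and only the KO libraries give the spread, there were 6238 for D-KO against WT, 3457 between E1-KO and E2-KO, 8030 for D-KO against E1-KO and 6157 against E2-KO. Between E1-KO and E2-KO, where edgeR called 100, DESeq2 called 247, no filter 415 and the removal of GC and length trends 260. In D-KO against E2-KO, where edgeR called 751, these called 1145, 1472 and 1388. The reported fits called 5739, 5919, 3824 and 2674 genes in the comparisons of E1-KO, E2-KO and D-KO with WT and of D-KO with E1-KO. Leaving out 1 replicate gave 3965 to 8753, 3969 to 8888, 2413 to 7006 and 1174 to 4934, with 16 to 722 between E1-KO and E2-KO, 227 to 2875 for D-KO against E2-KO and 4621 to 8673 in the interaction.

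Scaling by library totals moved the median log2 value of all genes from -0.01 to 0.10 in E1-KO against WT and from -0.01 to -0.18 in the interaction, and it moved the share of rises among calls from 45.9% to 57.1% in E1-KO against WT, from 54.0% to 65.0% between E1-KO and E2-KO, from 52.9% to 36.0% in D-KO against E1-KO and from 51.4% to 38.7% in the interaction. Signs turned only in values that were not called: Kdr in E2-KO against WT (leaving out 1 replicate gave -0.46 to 0.16), T in D-KO against E2-KO (-0.16 to 0.72), the interaction of T with library totals (-0.12), limma (-0.20) and leaving out 1 replicate (-0.42 to 0.47), and the interaction of Eomes with GC and length trends removed (0.18). List counts stayed within 1.5 times in 1578 of 1898 recomputed values. Replicate numbers did not pair the libraries (18 same-numbered pairs, r of -0.11 to 0.10), and the replicate block changed no other member call.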
